A study of Arabidopsis thaliana with 6 samples.

Results

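UDP-glycosyltransferases (UGTs) were followed in roots of iron-starved Arabidopsis thaliana that had either been turned into protoplasts and passed through a cell sorter or been left whole. The members are the probe sets that the platform annotation pairs with exactly 1 gene whose symbol is UGT and a number: 47 of 22746 probe sets other than controls, for 47 genes in 11 numbered families. All 47 symbols matched the reference gene table (TAIR10.1), which was used for names and gene order only. Sorted cells (3 arrays) were protoplasts of seedling roots, all collected after passage through the fluorescence-activated sorter with no gate for a cell type. Whole roots (3 arrays) were harvested without protoplasting. Both groups were of ecotype Columbia, were 6 days past germination and had spent 24 hours on medium with 0.3 mM ferrozine, an iron chelator, in the place of iron. Neither group held iron-fed roots, so no effect of iron can be read from these arrays. The study asked how protoplasting and sorting alter transcript levels.

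UGTs move a sugar from a UDP-sugar onto a small acceptor molecule, usually making it more soluble, less reactive and fit for storage in the vacuole. In Arabidopsis their acceptors include hormones, phenolic acids, monolignols, flavonols, glucosinolate precursors and foreign compounds. Genes of the family often lie side by side as tandem copies. Beta-glucosidases can remove the sugar again.

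Values are MAS5 signal intensities. Arrays of sorted cells differed more among themselves than arrays of whole roots did, with Pearson's r across the 13647 tested probe sets of 0.876 to 0.948 within sorted cells and 0.966 to 0.974 within whole roots (log2 values; probe sets are not independent replicates). The hybridisation controls, bacterial and phage transcripts added with the hybridisation mix, had a geometric mean of 2309.5, 1413 and 853 on sorted-cell replicates 1, 2 and 3, against 436, 467 and 476 on the whole-root arrays. The 3′ probe set of an actin control exceeded its 5′ probe set, a sign of RNA quality, by a log2 difference of 5.53, 4.09 and 3.37 in sorted cells and 1.60, 1.61 and 1.85 in whole roots. The brightest of 27 probe sets for bacterial genes not among those controls, taken as background, read 57.4, 36.3 and 14.3 in sorted cells and 16.8, 11.8 and 10.4 in whole roots. Root hair markers were lower in sorted cells (2 of 2 tested, with a summed intensity of 299 to 471, against 2477 to 3172 in whole roots), as were the markers of cortex and endodermis (2 of 2; 484 to 803, against 1028 to 1058), stele (1 of 1; 258 to 416, against 469 to 657) and green tissue (2 of 2; 68.2 to 141, against 503 to 569). The 1 tested root cap marker was higher, at 3069 to 6875, against 187 to 222 in whole roots. Of all tested probe sets 30.7% were lower and 24.7% higher, so these few markers are not read as a measure of cell makeup. JKD, of cortex and endodermis, and RCA, of green tissue, had sorted-cell means of 27.1 and 45.1. These lie under the cut of 53.9 for being tested, so both were tested through whole roots, the group where they are higher. No tested marker of a root tissue was at background on all arrays of either group, and no marker of non-hair epidermis or xylem had a probe set with 1 gene. The part of array signal, RNA quality and cell makeup in the results that follow was not tested, and in such bulk RNA fewer cells of a type and less RNA per cell cannot be told apart.

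Of the 47 members, 27 were bright enough to be tested (mean over 6 arrays above that of the dimmest 40% of probe sets) and 20 were not. In sorted cells 4 members rose, UGT73B4, UGT71B5, UGT73B5 and UGT85A2, and 10 fell, led by UGT73B1, UGT71C1 and UGT72E1 (limma, Benjamini-Hochberg adjusted p under 0.05 over all tested probe sets). The other 13 did not pass. Calls were made for 51.9% of the tested members and for 55.4% of all tested probe sets, with 14.8% of members and 24.7% of all probe sets higher and 37.0% and 30.7% lower. These shares lie near those of the array as a whole, so the count of calls is not a result about the family. With no filter on dim probe sets, 4 of all 47 members were higher and 12 lower, or 34.0% called, where 36.4% of 22746 probe sets were called (17.6% higher and 18.7% lower). The groups did not overlap for 18 of the 27 tested members, or 66.7%, beside 65.2% of all tested probe sets. Of these, 6 members stood wholly above whole roots and 12 wholly below, where 28.8% and 36.5% of all tested probe sets did. Of the 27, 5 had a mean under the filter's cut of 53.9 in 1 of the groups (UGT71B5, UGT73B1, UGT73D1, UGT76C1 and UGT76E2) and were tested through the other.

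**Figure D1:**
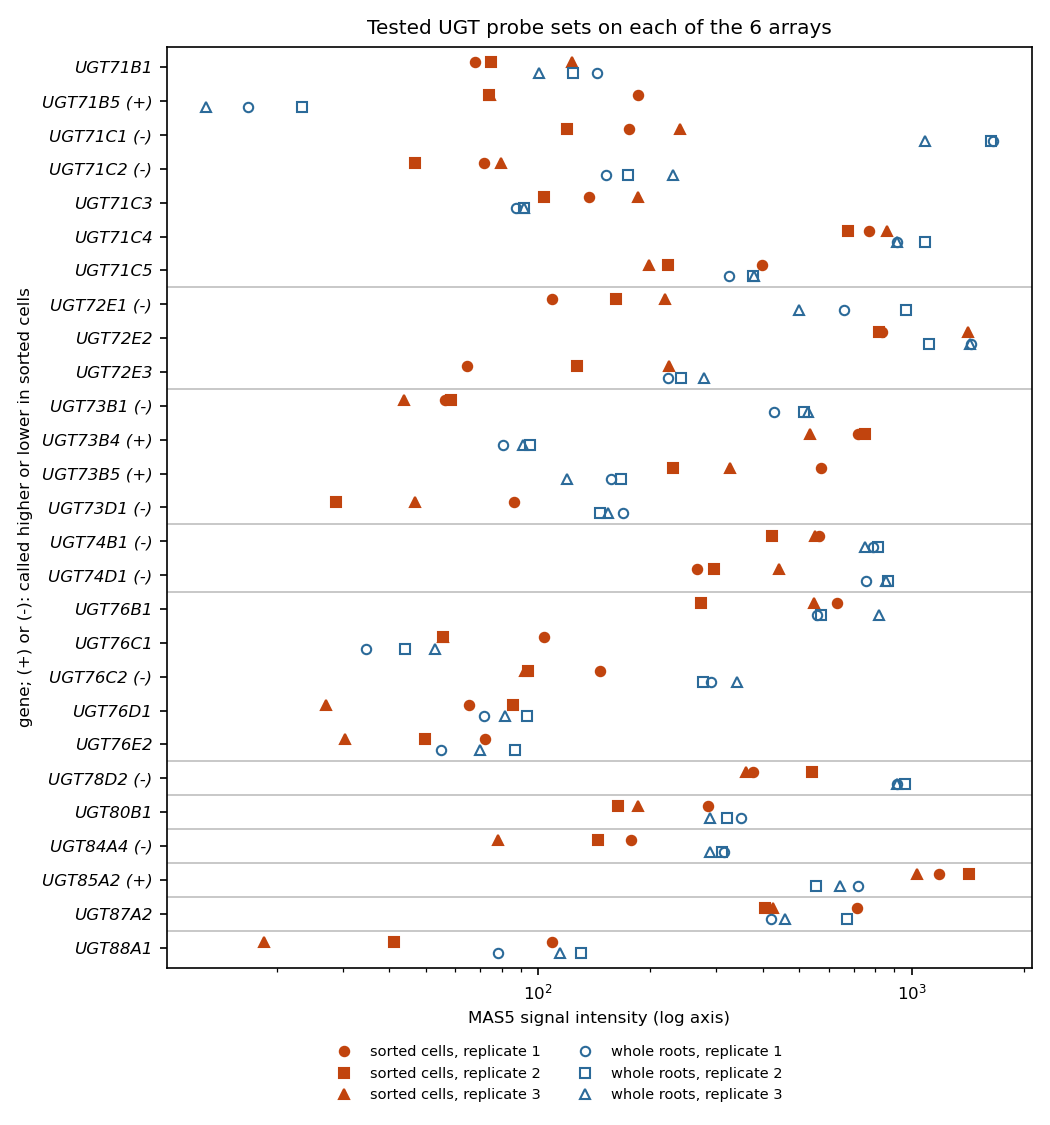
MAS5 signal intensity (log axis) of the 27 tested UGT probe sets on each array, grouped by family, with filled symbols for the 3 sorted-cell arrays and open symbols for the 3 whole-root arrays. The 14 genes marked (+) or (-) passed the test, and in each of them the groups do not overlap.

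Among genes of stress and detoxification, close relatives in UGT73 moved in opposite directions. UGT73B4 (AT2G15490), whose enzyme can glucosylate breakdown products of the explosive TNT and whose gene responds to pathogens, read 717, 749.8 and 536 in sorted cells, against 80.7, 95.1 and 91.3 in whole roots. Every sorted-cell array lay far above every whole-root array, a 7.44-fold rise (log2 difference 2.89, SE 0.21; limma adjusted p = 1.69e-05). UGT73B5 (AT2G15480), a gene tied to redox balance in the response to bacteria, read 574, 231 and 327 in sorted cells and 157, 166 and 119 in whole roots. It rose less (1.26, SE 0.32; limma adjusted p = 0.00933), with the highest reading on sorted-cell replicate 1. In the reference gene table the gene model of UGT73B5 overlaps that of UGT73B4, so the probe sets could share transcripts.

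UGT73B1 (AT4G34138), from the same subfamily, had the largest fall of the tested members. It read 56.2, 58.7 and 43.9 in sorted cells, against 429.6, 515 and 527 in whole roots, a log2 difference of -3.22 (SE 0.21; limma adjusted p = 1.2e-05). The sorted-cell readings were above background on 2 of 3 arrays, so the size of the fall is imprecise. UGT73D1 (AT3G53150) read 86.0, 28.7 and 47 in sorted cells and 169, 146 and 154 in whole roots, and fell by 1.68 on the log2 scale (SE 0.38; limma adjusted p = 0.00499), also with 2 of 3 sorted-cell arrays above background. With an offset of 64 on every intensity the fall was -0.93. Both UGT73B1 and UGT73D1 had a sorted-cell mean just under the filter's cut and were tested through whole roots, the group where they are higher. The other UGT73 members were too dim to be tested. UGT73C7, whose enzyme glucosylates p-coumaric and ferulic acid, read 53.4, 27.3 and 32.7 in sorted cells and 11.1, 16.8 and 16 in whole roots, without overlap but with only 1 sorted-cell array above background. UGT73C1, active on TNT products and on cytokinins, and UGT73C2 were at background on all 6 arrays.

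Among genes for the glucosylation of lignin precursors, UGT72E1 fell and UGT72E2 and UGT72E3 did not pass; the differences between the 3 were not tested. UGT72E1 acts on coniferyl and sinapyl aldehyde, and UGT72E2 and UGT72E3 on the corresponding alcohols; the glucoside of coniferyl alcohol is coniferin. UGT72E1 (AT3G50740) read 109, 162 and 219 in sorted cells, against 660.4, 969 and 499 in whole roots. It fell by 2.12 on the log2 scale (SE 0.32; limma adjusted p = 0.000612). UGT72E2 read 835, 819.6 and 1417 in sorted cells, against 1446, 1114 and 1435 in whole roots. The groups overlap, and the log2 difference of -0.42 did not pass (95% interval -1.0 to 0.17; limma adjusted p = 0.195). UGT72E3 read 64.6, 127 and 224 in sorted cells and 223, 241 and 279 in whole roots, where the highest sorted-cell array just reached the lowest whole-root array. Its difference of -1.01 did not pass (95% interval -1.90 to -0.12; limma adjusted p = 0.0535). Without sorted-cell replicate 3, the highest of its group in both genes, UGT72E2 passed at -0.68 (limma adjusted p = 0.0333; all alternatives gave 0.0333 to 0.399) and UGT72E3 at -1.44 (0.00855; all alternatives gave 0.00855 to 0.139). On all 3 sorted-cell arrays UGT72B3 was at background, at 2.84, 2.14 and 2.03, against 18.2, 27.7 and 21.4 in whole roots. Its whole-root readings were not above the mean background of the sorted-cell arrays, so no fold is given.

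UGT84A4, for esters of hydroxycinnamic acids, and UGT78D2, for flavonol glycosides, were lower, each the 1 tested member of its family number. Of all tested probe sets 30.7% were lower. UGT84A4 (AT4G15500), one of the UGT84A enzymes that esterify hydroxycinnamic acids with glucose, read 178, 144 and 78.2 in sorted cells and 315, 311 and 288 in whole roots. It fell by 1.27 on the log2 scale (SE 0.30; limma adjusted p = 0.00588). Its relatives UGT84A1 and UGT84A3 were at background on every sorted-cell array; UGT84A1 read 43.0, 45.5 and 14.6 in whole roots, too near background for a fold. UGT78D2 (AT5G17050), the flavonoid 3-O-glucosyltransferase, read 377, 541 and 359 in sorted cells, against a narrow 915, 963 and 913 in whole roots. It fell by 1.15 on the log2 scale (SE 0.22; limma adjusted p = 0.00196). The rhamnosyltransferase gene UGT78D1 and the arabinosyltransferase gene UGT78D3 of the same pathway were too dim to be tested.

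UGT71C1 (AT2G29750), whose enzyme takes caffeic acid and flavonols in vitro, had the second largest fall. It read 175, 119 and 239.8 in sorted cells, against 1649, 1628 and 1085 in whole roots, an 8.35-fold higher level in whole roots (log2 difference -3.06, SE 0.29; limma adjusted p = 6.09e-05). Whole-root replicate 3 was the lowest of its group for UGT71C1 and also for UGT72E1. UGT71C2 (AT2G29740) read 71.7, 46.9 and 79.8 in sorted cells and 152, 174 and 229 in whole roots, and fell by 1.5 on the log2 scale (SE 0.28; limma adjusted p = 0.00186). Its difference was -0.93 with an offset of 64. The groups are well apart in both genes.

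Of the tested genes for conjugation of cytokinin, auxin and abscisic acid, UGT76C2 and UGT74D1 fell, and UGT76C1 and UGT71C5 did not pass. UGT76C1 and UGT76C2 attach glucose to a ring nitrogen of cytokinins. UGT76C2 (AT5G05860) read 146, 94.3 and 92.2 in sorted cells, against 289.7, 276 and 342 in whole roots, and fell by 1.48 on the log2 scale (SE 0.24; limma adjusted p = 0.00086). UGT76C1 read 104, 55.6 and 55.8 in sorted cells and 34.6, 44.1 and 53.1 in whole roots. The groups do not overlap, but only narrowly, and the difference of 0.66 did not pass (95% interval -0.19 to 1.52; limma adjusted p = 0.162). UGT74D1 (AT2G31750), which glucosylates auxins and their oxidised forms, read 267, 295 and 443 in sorted cells, against 758, 863 and 854 in whole roots. It fell by 1.33 on the log2 scale, with each sorted-cell array well below each whole-root array (SE 0.23; limma adjusted p = 0.00138). UGT84B1, which conjugates indole-3-acetic acid, was at background on all but 1 of the 6 arrays. UGT71C5, which makes the glucose ester of abscisic acid, read 398, 223 and 198 in sorted cells and 325, 376 and 378 in whole roots. Sorted-cell replicate 1 was above all whole-root arrays, and the difference of -0.46 did not pass (95% interval -1.08 to 0.16; limma adjusted p = 0.178). Without that array it passed at -0.77 (limma adjusted p = 0.00544; all alternatives gave 0.00544 to 0.455). UGT71B6 and UGT71B8, which also act on abscisic acid, were at background on all 6 arrays.

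UGT76B1, UGT71C3 and UGT76D1, whose enzymes act on salicylate or related compounds, were tested and did not pass. UGT76B1, which glucosylates isoleucic acid, salicylic acid and N-hydroxypipecolic acid, read 633, 273 and 547 in sorted cells and 558, 574 and 819 in whole roots. The groups overlap (log2 difference -0.49, 95% interval -1.23 to 0.25; limma adjusted p = 0.227), and without sorted-cell replicate 2 the difference was -0.12. UGT71C3, which glucosylates methyl salicylate, read 137, 104 and 185 in sorted cells, each above the 87.5, 91.6 and 91.8 of whole roots. Its difference of 0.61 did not pass (95% interval 0.034 to 1.19; limma adjusted p = 0.068), but passed at 0.82 without sorted-cell replicate 2 (limma adjusted p = 0.0186; all alternatives gave 0.0186 to 0.204). UGT76D1, which acts on dihydroxybenzoic acids derived from salicylate, stood at -0.61 (limma adjusted p = 0.248), and at -0.96 and -0.12 without sorted-cell replicates 2 and 3. The salicylate gene UGT74F1 was too dim to be tested, at 43.9, 62.5 and 48.9 in sorted cells and 22.7, 49.9 and 24.7 in whole roots. UGT76E1, active on 12-hydroxyjasmonate, was at background on all 6 arrays.

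UGT74B1 (AT1G24100), the S-glucosyltransferase of glucosinolate synthesis, read 567, 424 and 553 in sorted cells, against 787, 815 and 749.9 in whole roots. It fell by 0.62 on the log2 scale (SE 0.20; limma adjusted p = 0.0259). That call was the least stable of the 14: leaving out whole-root replicate 1, 2 or 3 ended it (limma adjusted p = 0.0803, 0.102 and 0.0747), as did leaving out sorted-cell replicate 2 (0.0553) and quantile normalization (0.064). All its alternatives gave 0.00927 to 0.102. UGT80B1, which glucosylates membrane sterols, read 285, 164 and 185 in sorted cells and 349, 320.4 and 288 in whole roots. The groups did not overlap, and its difference of -0.63 fell just short (95% interval -1.18 to -0.084; limma adjusted p = 0.051). It passed without sorted-cell replicate 1 at -0.87 (limma adjusted p = 0.0032), and under 4 alternatives with all arrays. The adjusted p ran from 0.0032 to 0.157 in all.

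The remaining rises were those of UGT85A2 and UGT71B5, for which no acceptor is given here. UGT85A2 (AT1G22360) read 1188, 1427 and 1033 in sorted cells, against 721, 554 and 642 in whole roots. It rose by 0.92 on the log2 scale (SE 0.21; limma adjusted p = 0.00528). UGT71B5 (AT4G15280) read 185, 73.9 and 74.2 in sorted cells and 16.7, 23.3 and 12.9 in whole roots. The log2 difference was 2.55 (SE 0.50; limma adjusted p = 0.00254), but 1.04 with an offset of 64. Of the whole-root arrays 2 of 3 were above background, so the size of the rise is imprecise. The whole-root mean of UGT71B5 lay under the filter's cut, and it was tested through sorted cells. UGT87A2, a gene that affects flowering time, read 715, 406 and 427 in sorted cells and 419.7, 673 and 459 in whole roots. The groups overlap broadly (log2 difference -0.022, 95% interval -0.66 to 0.62; limma adjusted p = 0.952). UGT71C4 read 769, 678 and 860.3 in sorted cells, against 916, 1088 and 915 in whole roots, apart but not passing (-0.34, 95% interval -0.78 to 0.10; limma adjusted p = 0.164). UGT71B1 (-0.51; limma adjusted p = 0.162), UGT76E2 (-0.54; 0.269) and UGT88A1 (-1.27; 0.0864) did not pass either. UGT88A1 was spread over 109, 41.2 and 18.5 in sorted cells, against 77.9, 131 and 115 in whole roots, and passed at -1.93 without sorted-cell replicate 1 (limma adjusted p = 0.00259; all alternatives gave 0.00259 to 0.262). UGT71B1 passed at -0.77 without sorted-cell replicate 3 (limma adjusted p = 0.0415; all alternatives gave 0.0415 to 0.387).

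By family number, UGT71 and UGT73 were the families with calls in both directions. UGT71 had 9 members, 7 tested, with 1 higher, 2 lower and 4 not passing, and differences over all 9 of -3.06 to 2.55 (median -0.34, log2). UGT73 had 7 members, 4 tested, with 2 higher and 2 lower, from -3.22 to 2.89 (median 1.26, or 0.62 with quantile normalization, with 3 dim members among those above 0). All 4 UGT72 members stood below 0 (median -1.57; 1 of 3 tested lower), and all 5 UGT85 members above it (median 0.86; the 1 tested member higher), or 4 of the 5 with quantile normalization (median 0.45). Of all probe sets other than controls, 45.5% stood below 0 and 54.5% above it. The other UGT85 members were too dim to be tested, so their side of 0 is not read as a family trait. UGT76 had 8 members with a median of 0.088 (-0.0035 with quantile normalization), and 1 of its 5 tested members was lower. Of the UGT76 members, UGT76E1, UGT76E11 and UGT76E12 were at background on all 6 arrays. UGT84 had 5 members with a median of -1.08, and the 1 tested was lower. That median is the value of UGT84B1, at background on all but 1 array. The medians of families with several members all include members too dim to be tested. Of 3 members each, UGT74 had 2 tested, both lower, and UGT78 had 1 tested, also lower (median over the 3 of 0.11, or -0.45 with quantile normalization). UGT80, UGT87 and UGT88 were represented by 1 member each. No difference between families was tested, since members of a family are not replicates. The median over all 47 members was -0.022, beside 0.15 over all probe sets other than controls, and over the 27 tested members -0.61, beside -0.16 over all tested.

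**Figure D2:**
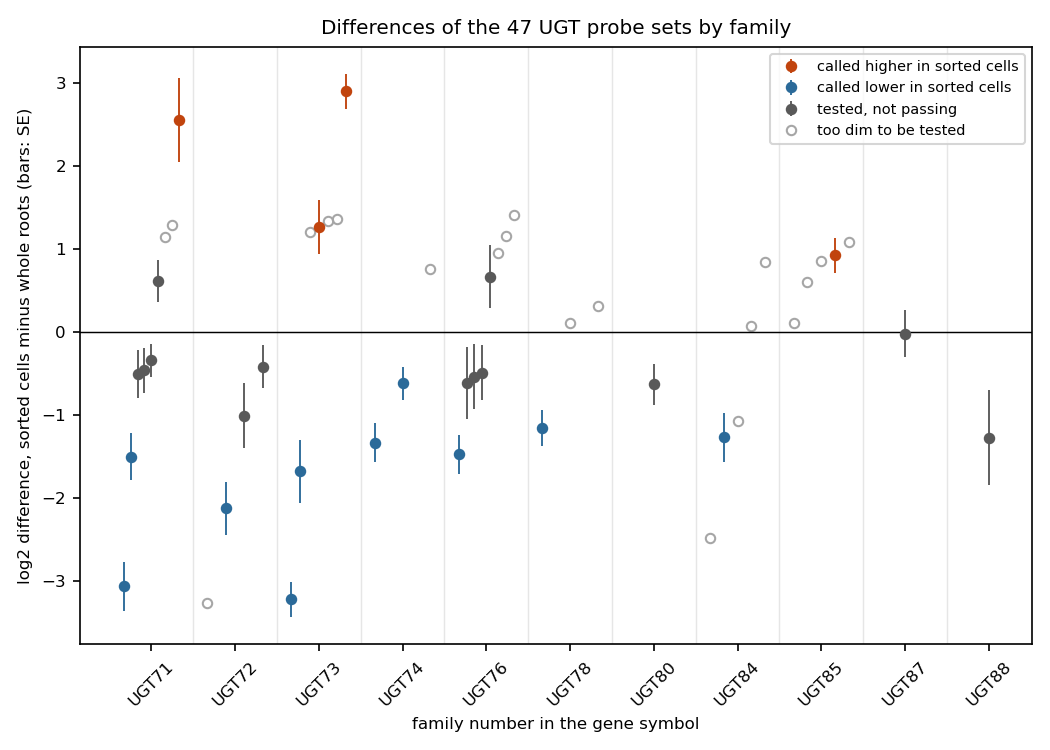
Log2 difference, sorted cells minus whole roots, of the 47 UGT probe sets by family number, with SE bars from the limma fit for tested members and open symbols for members too dim to be tested. UGT71 spans -3.06 to 2.55 and UGT73 -3.22 to 2.89, while all 4 UGT72 members lie below 0 and all 5 UGT85 members above it (4 of 5 with quantile normalization). Of all probe sets other than controls, 45.5% lie below 0 and 54.5% above it.

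The dim members read differently from the bright ones. Of the 20 members that were not tested, 17 (85.0%) stood higher in sorted cells, with a median of 0.85 on the log2 scale. Over all 9099 untested probe sets 69.3% did so, with a median of 0.65. With quantile normalization these shares were 13 of 20 (65.0%) and 52.7%, and the medians 0.35 and 0.072. Background itself was higher on sorted-cell replicates 1 and 2 than on any whole-root array, as given above, and 9 members were at background on all 6 arrays. Of the 27 tested members, 21 stood lower in sorted cells, or 77.8%, where 55.3% of all tested probe sets did.

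**Figure D3:**
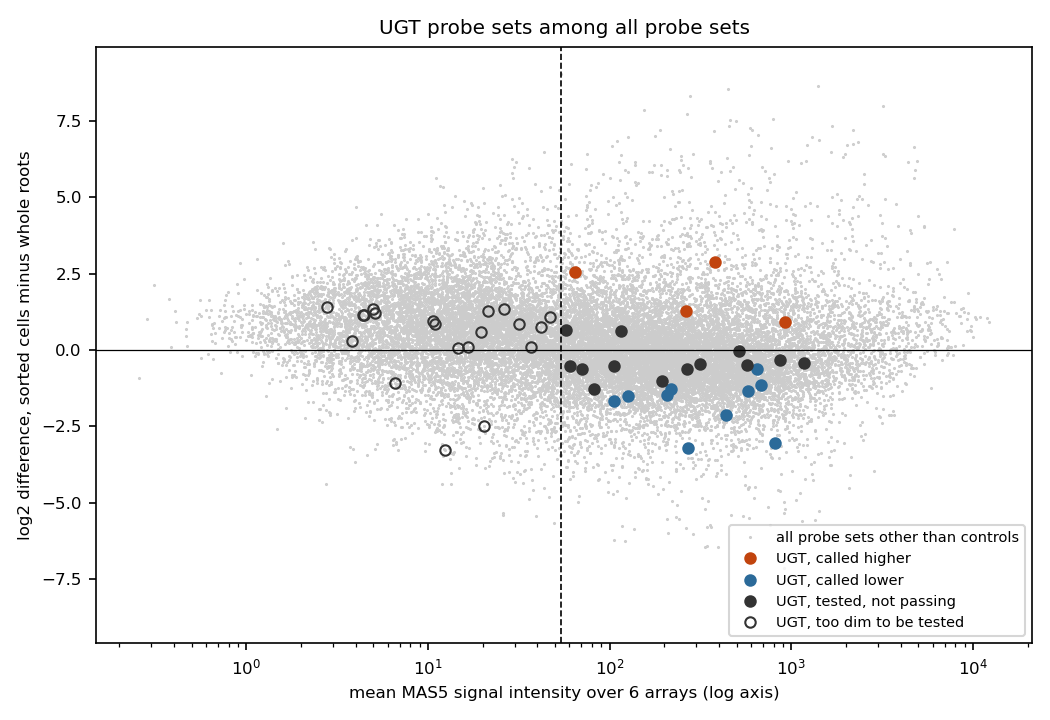
Log2 difference, sorted cells minus whole roots, against mean MAS5 intensity over 6 arrays (log axis) for all 22746 probe sets other than controls (grey) and the 47 UGT probe sets. Left of the dashed line, the filter's cut at 53.9, 17 of 20 UGT probe sets lie above 0 (13 of 20 with quantile normalization), and right of it 6 of 27 do.

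The spread between replicates was larger in sorted cells for each of the 27 tested members. Their median SD on the log2 scale was 0.46 in sorted cells and 0.19 in whole roots, beside 0.37 and 0.18 over all tested probe sets. The share of all tested probe sets with a larger spread in sorted cells is not given here, so the count is not a result about the family. Sorted-cell replicate 1, which had the largest actin 3′ to 5′ difference and the brightest hybridisation controls, gave the highest of the 3 sorted-cell readings for 13 of the 27, the middle one for 10 and the lowest for 4. The same count over all tested probe sets was not made, so this is not a result about the family. The 4 rises kept their calls without that array, but the filter still used the mean over all 6 arrays. UGT71B5, which passed the filter through sorted cells, read 185 on that array, against 73.9 and 74.2 on the other sorted-cell arrays.

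Genes that lie side by side were also compared with each other. Of the 47 members, 31 lie in 13 groups of neighbours, taken as members with at most 5 protein-coding genes between them in the reference gene table. In 5 pairs of neighbouring genes both were tested, and for these the log2 ratio of the signals was compared on each array, relative to its mean in whole roots. UGT76C2 over UGT76C1 shifted by -2.31, -2.04 and -2.07 in sorted cells, against 0.27, -0.15 and -0.11 in whole roots. The mean shift for these cytokinin genes was -2.14 ± 0.15 (SD, n = 3), and the groups do not overlap (exact two-sided permutation test, p = 0.1). UGT76C1 had a whole-root mean of 43.9, under the filter's cut of 53.9. This pair was thus compared only because UGT76C1 passed the filter through sorted cells, where it read higher. UGT73B5 over UGT73B4 shifted by -1.04, -2.42 and -1.43 in sorted cells, against 0.24, 0.09 and -0.33 in whole roots, since UGT73B4 rose more. UGT71C2 over UGT71C1 shifted by 1.68, 1.62 and 1.38 in sorted cells, against -0.47, -0.26 and 0.73 in whole roots, since UGT71C1 fell more. UGT71C4 over UGT71C3 shifted by -0.94, -0.71 and -1.21 in sorted cells, against -0.04, 0.14 and -0.11 in whole roots; the gene models of this pair overlap too. In these 3 pairs the groups were apart as well (exact two-sided permutation test, p = 0.1 each, the smallest that 3 arrays against 3 allow, and 0.125 adjusted over the 5 pairs). Of all single tested probe sets, 65.2% had groups that do not overlap. The share for ratios of other pairs of probe sets was not computed, so the count of pairs apart is not a result about neighbours. UGT71C5 over UGT71C4 shifted by 0.48, -0.17 and -0.68 in sorted cells and overlapped with whole roots (mean shift -0.12; exact two-sided permutation test, p = 0.7).

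**Figure D4:**
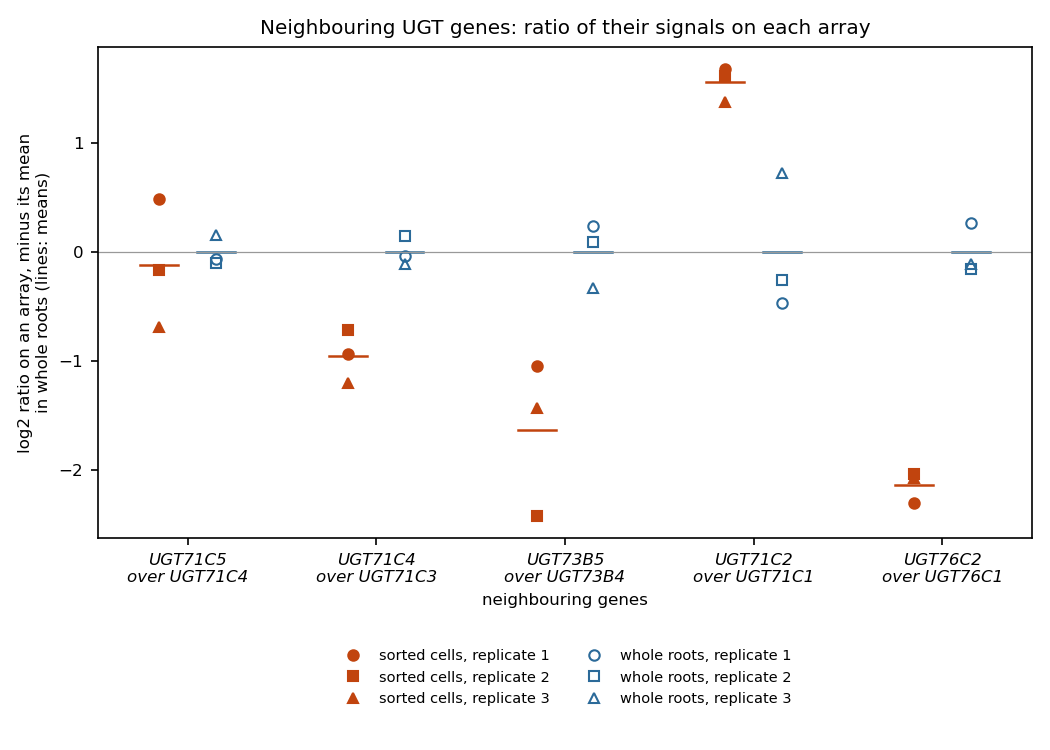
Log2 ratio of the signals of 5 pairs of neighbouring UGT genes on each array, minus its mean in whole roots, with filled symbols for sorted cells, open symbols for whole roots and lines for group means. In 4 pairs the 3 sorted-cell arrays lie apart from the 3 whole-root arrays, farthest for UGT76C2 over UGT76C1 at a mean of -2.14. UGT76C1 passed the filter on dim probe sets through sorted cells, where it read higher. The share for other pairs of probe sets was not computed.

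Genes that supply, oppose or accompany glycosylation were represented by few probe sets. Of 22 beta-glucosidase genes with a probe set, 8 were tested, none was higher, 2 were lower and 6 did not pass (median over the 22 of 0.68, log2, and over the 8 of -0.20). Of all tested probe sets 24.7% were higher and 30.7% lower. BGLU45, whose enzyme releases coniferyl alcohol from coniferin, read 11.6, 9.64 and 8.96 in sorted cells, at background on every array, against 79.2, 127 and 99 in whole roots. It was at least 3.22-fold lower (limma adjusted p = 0.000664), with the background level of each sorted-cell array taken as its highest possible reading. BGLU46, which acts on the same glucosides, read 602, 218 and 421 in sorted cells and 332, 315 and 415 in whole roots and did not pass (log2 difference 0.12; limma adjusted p = 0.789). BGLU44 was lower, at a log2 difference of -1.79 (limma adjusted p = 0.0076), with only 1 of 3 sorted-cell arrays above background, so the size is imprecise. Both lower genes had a sorted-cell mean under the filter's cut of 53.9 (10.1 for BGLU45 and 26.9 for BGLU44). They were tested through whole roots, the group where they are higher. PYK10, the main glucosidase of ER bodies, stood at 0.098 and did not pass.

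Of 8 phenylpropanoid and flavonoid genes with a probe set, 5 were tested, 3 were lower and 2 did not pass (median over the 8 of -0.38), beside the same 30.7% lower over all tested probe sets. AT3G13610, the feruloyl-CoA hydroxylase of scopoletin synthesis, read 176, 67.0 and 123 in sorted cells, against 1019, 1389.6 and 506 in whole roots (log2 difference -2.98, SE 0.43; limma adjusted p = 0.000482). ALDH2C4, which makes ferulic and sinapic acid, fell by 1.07 and HCT, of monolignol synthesis, by 0.57. The flavonoid gene CHI stood at -1.06 and did not pass (limma adjusted p = 0.0902). Of 2 tested partners in detoxification, the glutathione transferase gene GSTU25 rose by 3.73 and AER, a reductase gene, stood at 0.83 and did not pass (limma adjusted p = 0.106). Among all tested probe sets 24.7% were higher. USP, the 1 gene of UDP-sugar supply with a probe set, read 758, 737 and 889 in sorted cells, all above the 543, 606 and 624 of whole roots, at a difference of 0.42 that did not pass (limma adjusted p = 0.084). The glucosinolate list had 2 probe sets, both too dim, and the list of TGA-type regulators had none.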

How the data were processed

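RNA of 6 samples was hybridised to 1 Affymetrix array each after 2 cycles of amplification, per the labels' protocols. The deposited values are intensities on a linear scale. The submitters' processing notes name MAS5; its version and target are not known here. The trimmed mean of each array (2% at each end) lay at 250.02 to 250.03, so values were used as deposited. Precision is limited by having 3 arrays a group. Whether the replicates were grown separately is not in the labels: p-values cover only how these samples vary, and that variation may be technical.

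The array holds 22810 probe sets. The platform annotation gives 1 gene for 13513 of them and several for 503, and does not list 8730; 64 are controls. Controls and the dimmest 40% of the others were left out. The test on log2 intensities was that of limma 3.58.1 under R 4.3.3, with a variance trend in eBayes and no block. It was checked on simulated data with the same spread in both groups, which does not cover the larger spread of sorted cells. Pairs of genes were compared by an exact permutation test (scipy 1.17.1). A fold given as "at least" divides the bright group's geometric mean by that of the dim group, with each dim reading raised to its array's background level. Members with values given in full were the 10 largest rises and falls among called members without overlap and the 5 brightest that did not pass; others were added after their values were seen. The members, gene lists and markers were chosen with earlier results of these data known. Alternatives were 2 scalings, 2 offsets, 2 filters, no variance trend, the replicate number as a block and each array left out in turn.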

Additional observations from a re-analysis of the deposited data

How the results depend on the processing

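Of the 14 called members, 13 kept their call and direction under every alternative in which they were tested, and only UGT74B1 lost its call. UGT71B5, UGT71C2 and UGT73D1 were too dim to be tested with the dimmest 60% left out. Besides the alternatives given above, UGT74B1 lost its call with the replicate block (limma adjusted p = 0.0668). The count of members higher was 3 to 5 over all alternatives and that of members lower 9 to 13, beside 4 and 10, and the count over all probe sets was 5397 to 8271, beside 7564. Replicate numbers did not pair the arrays: deviations of same-numbered arrays correlated at -0.29, -0.16 and -0.04, and with the replicate block 6815 probe sets, 4 members higher and 10 lower were called. UGT72E3, which did not pass as deposited, passed with that block (-1.01; adjusted p = 0.0258) and with offsets of 16 (-0.90; 0.0484) and 64 (-0.70; 0.0457). The median over the members was -0.022 over all 47, but -0.61 over those that passed the 40% filter and -0.63 with the dimmest 60% left out, since dim members stood higher. It was -0.33 with quantile normalization, and -0.31 to 0.14 with single arrays left out. UGT87A2, near 0 throughout, changed sign with quantile normalization (0.14), and ran from -0.28 to 0.18 with single arrays left out. Without sorted-cell replicates 2 or 3 it stood at 0.13 and 0.09, and without whole-root replicate 2 at 0.18 (the cause was not tested). With these arrays, readings under about the background level carry no order.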

Other observations

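A further 3 probe sets read a UGT gene together with another gene and are not among the 47. The probe set shared by UGT73B2 and UGT73B3 read 2190.0, 583 and 1255 in sorted cells, against 743, 1005 and 1254 in whole roots. It spanned the whole-root range and did not pass (log2 difference 0.26, SE 0.43; limma adjusted p = 0.631). The probe set shared by UGT89B1 and AT1G73885 read 179.7, 166 and 109.7 in sorted cells, each above the 54.3, 48.8 and 69.9 of whole roots (log2 difference 1.38, SE 0.28; limma adjusted p = 0.00294). The probe set shared by UGT71D1 and AT2G29710 read 269.6, 314 and 315 in sorted cells and 212, 257 and 270.4 in whole roots, with overlap, and did not pass (0.29; limma adjusted p = 0.237). Which gene of each pair gave the signal is not known.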
